A study of Ovis aries with 16 samples.

Results

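The microRNAs (miRNAs) described here are MIR23A, MIR27A and MIR23B, of the miR-23 and miR-27 families. They were chosen by name: of the 4 genes MIR23A, MIR23B, MIR27A and MIR27B, 3 had a row among the 105 miRNAs measured, and MIR27B was not analysed here. No measured value entered this rule of names, though earlier results of these data were known when it was set. Small RNA of liver and muscle was sequenced from 8 female sheep, and the question posed by the series is what excess testosterone before birth does to the RNA of these tissues. Ewes 98, 131, 132 and 201 were the controls, and ewes 48, 185, 233 and 255 had prenatal testosterone treatment (prenatal T). Each ewe gave a liver and a muscle library, so there were 4 groups of 4 libraries (liver control, liver prenatal T, muscle control and muscle prenatal T). Total RNA was taken with Trizol and libraries were made with a NEBNext small RNA kit. The labels do not state the breed, the age of the ewes, or the dose and timing of testosterone.

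miRNAs are short RNAs that guide Argonaute proteins to messenger RNAs and lower their translation or stability. In vertebrates the miR-23, miR-27 and miR-24 hairpins are cut from shared transcripts, and a cluster with MIR23A and MIR27A has a paralogous cluster with MIR23B and MIR27B. miR-23 and miR-27 have different seeds and so mostly different targets, while the mature products of MIR23A and MIR23B are nearly identical. In mice, miR-23a is known to repress ubiquitin ligases that drive muscle atrophy. miR-27 is known in mouse and human cells as a brake on fat cell formation and a regulator of lipid genes in liver, and both families act in the endothelium of growing vessels.

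In the sheep RefSeq annotation (ARS-UI_Ramb_v3.0) MIR23A and MIR27A lie within 10000 bases of each other, next to the protein-coding gene ZSWIM4. MIR23B lies inside the protein-coding gene AOPEP. Since the build behind the measurements is not given in the sources used here, no coordinates are printed. How reads that match both MIR23A and MIR23B were assigned is not given either, so the levels of these near-identical miRNAs are uncertain to that extent, and its effect was not tested.

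The libraries held 206304 to 755344 miRNA reads in liver and 113522 to 885316 in muscle, the lowest being the muscle of ewe 255. By the numbers in their labels the libraries fall into a lower run (set 1, 9 libraries) and a higher run (set 2, 7 libraries); what the numbers stand for is not given. In each liver group 1 library was in set 1 (ewes 98 and 48) and 3 were in set 2. All 4 muscle controls and 3 of the muscle prenatal T libraries were in set 1, and the muscle of ewe 255 was in set 2. Tissue and library set were thus largely confounded. The muscle-specific MIR133 made up 50.0% to 56.4% of miRNA reads in 7 muscle libraries and 37.2% in the muscle of ewe 255. In liver it took 0.0290% to 0.0639% in 7 libraries and 0.227% in that of ewe 98. MIR148A and MIR194, the hepatocyte markers measured (2 of 4 listed), summed to at least 22533 jointly scaled reads in every liver library and to no more than 2285 in any muscle library, so the tissue labels held. The liver of ewe 98 and the muscle of ewe 255 stood apart in MIR133, and the results below are also given without them where they matter.

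All members were abundant. The values deposited by the authors are reads divided by a size factor per library, set within each tissue, and are called normalised reads here, so deposited levels of liver and muscle cannot be set against each other. The fewest sequenced reads behind a member were 285 for MIR23A, 634 for MIR27A and 597 for MIR23B, all in the muscle of ewe 255. Among the 105 miRNAs ranked by group mean, MIR27A stood between place 21 and 24, MIR23B between 22 and 27, and MIR23A between 27 and 32.

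In liver MIR23A, the miR-23 gene next to MIR27A, had 2341, 1343, 1496 and 1357 normalised reads in control ewes 98, 131, 132 and 201. In prenatal T ewes 48, 185, 233 and 255 it had 2049.6, 1657, 1428 and 1848. The liver of ewe 98 was the highest of all and the other controls lay at or near the low end, so the groups overlapped. MIR27A, its neighbour, had 1971, 3970.2, 5309.9 and 4789.6 normalised reads in the livers of the controls. In the livers of prenatal T ewes it had 3629, 4603, 3860.2 and 3732. Here the liver of ewe 98 was the lowest, at less than every other liver, and the remaining controls and the exposed ewes overlapped. MIR23B, the miR-23 gene of the paralogous cluster, had 3449, 2552, 2188 and 2372 normalised reads in control livers. It had 2517, 2357, 2177 and 3067 in exposed livers. The liver of ewe 98 was again the highest, and the groups overlapped.

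In muscle, too, control and exposed ewes overlapped for all 3 members. MIR23A had 1094, 1585, 1299.8 and 1037 normalised reads in the muscle of control ewes 98, 131, 132 and 201. It had 1189, 1066, 943 and 749.6 in the muscle of prenatal T ewes 48, 185, 233 and 255. The highest values were in controls 131 and 132 and the lowest in exposed ewes 233 and 255, with overlap between. MIR27A had 1783, 1338, 1449 and 1547 normalised reads in control muscle. It had 1471, 1471, 1506 and 1668 in exposed muscle, within the range of the controls. MIR23B had 1733, 2372, 2149 and 2263 normalised reads in control muscle and 2235, 2019.6, 1846 and 1570.3 in exposed muscle. The lowest MIR23B value was that of ewe 255, and the groups overlapped.

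**Figure D1:**
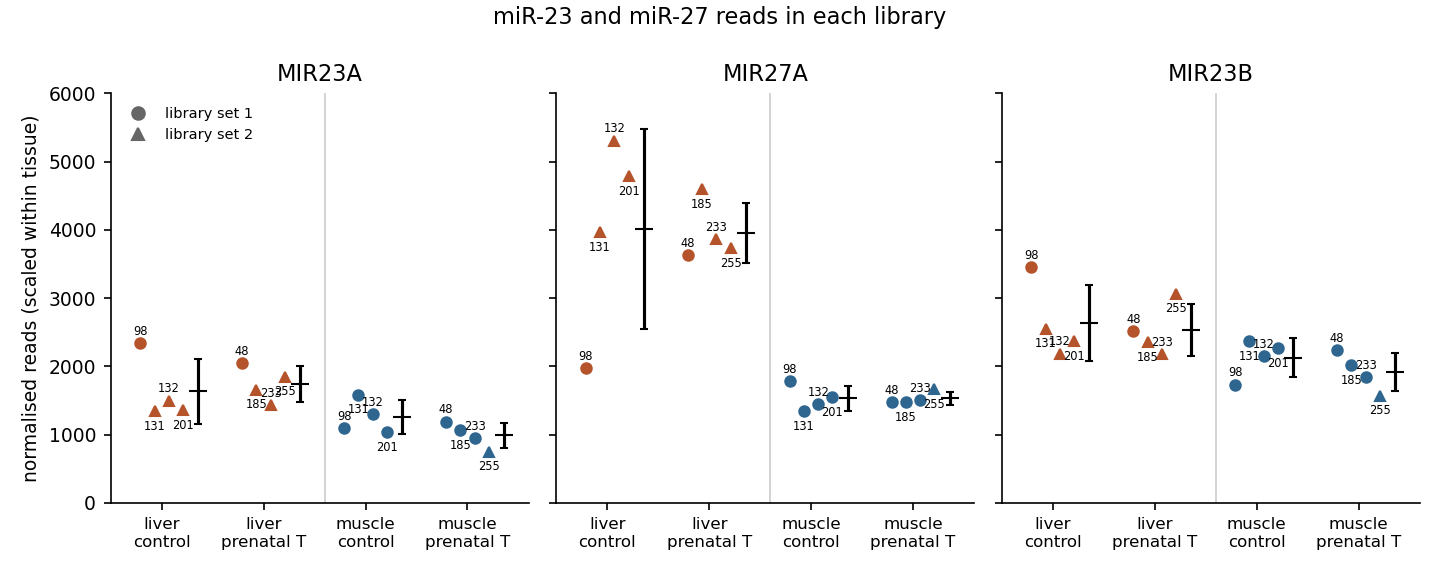
Normalised reads (y axis, scaled within each tissue) of MIR23A, MIR27A and MIR23B in each of the 16 libraries by group (x axis), with the ewe number beside each point, circles for library set 1, triangles for set 2, and the group mean with its SD (n = 4) as a bar. In liver the library of ewe 98 is highest for MIR23A (2341) and MIR23B (3449) and lowest for MIR27A (1971), and control and prenatal T libraries overlap in every panel.

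No effect of prenatal T on a member was detected in liver. MIR23A had 1634 ± 476 normalised reads in controls and 1746 ± 265 in prenatal T ewes (mean ± SD, n = 4 each), a log2 difference of 0.12 (95% interval −0.36 to 0.60). MIR27A had 4010.2 ± 1467 and 3956 ± 441, a log2 difference of 0.068 (−0.51 to 0.64). MIR23B had 2640.4 ± 559 and 2529.7 ± 384, a log2 difference of −0.051 (−0.49 to 0.39). The intervals include changes as large as 1.52-fold higher for MIR23A, 1.56-fold higher for MIR27A and 1.4-fold lower for MIR23B. The adjusted p was 0.959 for each of the 3 (limma, Benjamini-Hochberg over the 81 miRNAs tested). None of the 81 miRNAs passed (0%), and 0 had an unadjusted p under 0.05. The median size of the log2 difference over all 81 was 0.15, larger than that of the members.

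Without the liver of ewe 98 the MIR23A difference was 0.31, that of MIR27A turned to −0.24 and that of MIR23B to 0.084, with adjusted p between 0.878 and 0.975. Within library set 2 alone (3 controls and 3 exposed ewes) these were 0.23, −0.20 and 0.083, with an adjusted p of 0.943 for each. Set 1 held 1 liver of each group and gives no test.

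In muscle MIR23A gave the widest gap of the 3, and it did not pass the test. It had 1254 ± 248 normalised reads in controls and 987 ± 187 in prenatal T ewes (n = 4 each), a log2 difference of −0.35 (−0.74 to 0.049) with an unadjusted p of 0.0814 and an adjusted p of 0.651 (limma). By p it was 8th among the 64 miRNAs tested, of which 0 passed (0%) and 5 had an unadjusted p under 0.05. MIR23B had 2129.5 ± 279 and 1918 ± 281, a log2 difference of −0.15 (−0.49 to 0.18) and an adjusted p of 0.778. MIR27A had 1529 ± 189 and 1529 ± 94.1, a log2 difference of 0.0058 (−0.30 to 0.31) and an adjusted p of 0.984. The median size over the 64 was 0.20. The MIR23A difference was −0.22 without the muscle of ewe 255, which leaves library set 1 alone, and −0.23 without that of ewe 131. Leaving out each muscle library in turn gave −0.44 to −0.22, the widest without ewe 48 (unadjusted p 0.0375, adjusted p 0.305). In the fits without ewe 255 and without ewe 131 MIR27A was at −0.037 and −0.056, and MIR23B at −0.061 and −0.098.

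Whether prenatal T acted differently in the tissues was tested directly, as liver effect minus muscle effect on jointly scaled reads of all 16 libraries. This fit did not pair the liver and muscle of a ewe. A block for the ewe was among the alternative fits, in which the lowest adjusted p of a member was 0.656 (limma). The difference was 0.53 (−0.075 to 1.13) on the log2 scale for MIR23A, with an unadjusted p of 0.0832 and an adjusted p of 0.751 (limma), 5th by p among 76 miRNAs. It was 0.16 (−0.37 to 0.69) for MIR23B, with an adjusted p of 0.833. It was 0.12 (−0.60 to 0.84) for MIR27A, with an adjusted p of 0.865. None of the 76 passed (0%) and 3 had an unadjusted p under 0.05. Without the liver of ewe 98 the values were 0.68, 0.27 and −0.22 in the same order, with an adjusted p of 0.852 for each. Without ewe 255 they were 0.39, −0.012 and 0.21.

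**Figure D2:**
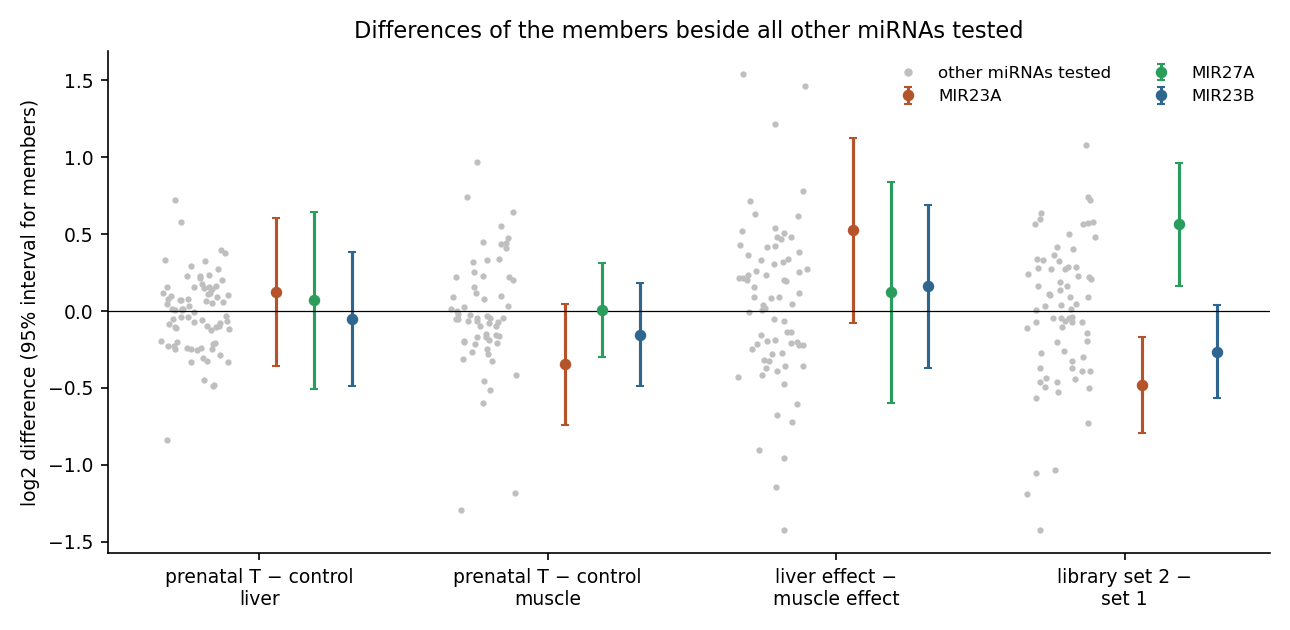
Log2 differences from limma (y axis) in 4 comparisons (x axis): prenatal T minus control in liver, the same in muscle, the liver effect minus the muscle effect, and library set 2 minus set 1 with the groups as covariates. Coloured points with 95% intervals are MIR23A, MIR27A and MIR23B, and grey points are the other miRNAs tested; the intervals of the prenatal T comparisons all include 0, and between library sets MIR23A (−0.48) lies below 0 and MIR27A (0.56) above it.

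Between the tissues of control ewes both miR-23 genes were lower in liver on a joint scale. Their differences turned positive as a share of all miRNA reads. MIR27A did not pass the test on the joint scale. As a share of all miRNA reads and of the reads of the 4 RNA classes it passed as higher in liver. For the joint scale reads were divided by median-of-ratios factors computed over both tissues. In the controls MIR23A had 1051 ± 218 reads in liver and 1944 ± 347 in muscle (n = 4 each). MIR23B had 1706 ± 229 in liver and 3306 ± 408 in muscle, while MIR27A had 2668 ± 1086 and 2378 ± 319. In prenatal T ewes MIR23A had 1159 ± 184 in liver and 1504 ± 314 in muscle, and MIR23B had 1679 ± 256 and 2921 ± 484. MIR27A had 2622 ± 236 in liver and 2322 ± 121 in muscle of these ewes.

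On the joint scale the order of groups for both miR-23 genes was therefore muscle control, muscle prenatal T and then the livers, and neighbouring groups of the same tissue did not pass the test between them. The 4 MIR27A group means lay within 1 SD of the liver controls. As a share of all miRNA reads, of which MIR133 takes 37.2% to 56.4% in muscle, the order was different. MIR27A was 1.03% ± 0.350 of reads in control liver and 1.06% ± 0.0676 in exposed liver, against 0.366% ± 0.0278 and 0.40% ± 0.106 in muscle. MIR23A was 0.428% ± 0.151, 0.471% ± 0.0769, 0.304% ± 0.0765 and 0.250% ± 0.0273 in the same 4 groups. MIR23B was 0.689% ± 0.184, 0.684% ± 0.129, 0.514% ± 0.0887 and 0.489% ± 0.0506.

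In controls, liver minus muscle was −1.02 (SE 0.20, adjusted p 0.000667, limma) for MIR23A and −1.09 (SE 0.17, adjusted p 0.000123) for MIR23B on the jointly scaled log2 values, and −0.083 (SE 0.29, adjusted p 0.779) for MIR27A. Of the 76 miRNAs tested 58 passed (76.3%), with 34.2% lower in liver and 42.1% higher, so 2 of 3 members passing is near the background. In prenatal T ewes MIR23B was lower in liver on this scale, at −0.83 (SE 0.20, adjusted p 0.00184), while MIR23A at −0.39 (SE 0.22, adjusted p 0.124) and MIR27A at 0.14 (SE 0.16, adjusted p 0.456) did not pass. There 47 of 75 miRNAs passed (62.7%), with 26.7% lower and 36% higher in liver. Without ewe 255, MIR23A passed in the exposed ewes too, at −0.69 (adjusted p 0.0105). Without the liver of ewe 98 the control values were −1.19 for MIR23A and −1.21 for MIR23B, and MIR27A turned to 0.25 (adjusted p 0.140).

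These directions depend on the scale. The deposited values are scaled within each tissue, so their differences between tissues are given only to show this dependence. In controls MIR23A was at 0.36 as deposited (adjusted p 0.135) and 0.47 as a share of miRNA reads (adjusted p 0.0902), which did not pass, and at 1.17 as a share of the reads of all 4 RNA classes measured (adjusted p 0.000521). MIR23B was at 0.30 (adjusted p 0.135), 0.40 (adjusted p 0.0816) and 1.11 (adjusted p 0.000166). As a share of miRNA reads without MIR133, both passed as lower in liver, MIR23A at −0.60 (adjusted p 0.0412) and MIR23B at −0.67 (adjusted p 0.0104). In prenatal T ewes that share gave −0.12 (adjusted p 0.589) for MIR23A and −0.55 (adjusted p 0.0161) for MIR23B. The 3 scalings with positive values in controls were positive for both miR-23 genes in these ewes as well. In controls MIR27A passed as higher in liver under these scalings (limma). It was at 1.30 as deposited (adjusted p 0.000743), 1.41 as a share of miRNA reads (adjusted p 0.000188) and 2.12 as a share of the 4 classes (adjusted p 2.71e-06). Without MIR133 it was at 0.34 (adjusted p 0.248) and did not pass. The median of all miRNAs (liver minus muscle, log2) ran from 0.13 on the joint scale to 2.42 for the share of the 4 classes in controls, and from 0.20 to 2.29 in exposed ewes. Relative to that median, MIR23A in liver was at −1.48 to −1.16 in controls and at −0.61 to −0.56 in prenatal T ewes over the 5 scalings. MIR23B was at −1.55 to −1.22 and −1.04 to −0.996. MIR27A was at −0.54 to −0.21 in controls and −0.077 to −0.028 in exposed ewes. A scaling shifts all miRNAs nearly alike, so these distances change little by construction, and the 5 scalings are not separate tests of them. Without the liver of ewe 98, MIR27A in controls was at 0.12 relative to the median on the joint scale. In prenatal T ewes its distance ran from −0.155 to 0.118 over all alternative fits.

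With library set as a covariate, added after the data were seen, the comparison in controls rests on the liver of ewe 98 alone against muscle of set 1. It gave −0.56 (adjusted p 0.0609) for MIR23A, −0.77 (adjusted p 0.00912) for MIR23B and −1.10 (adjusted p 0.00120) for MIR27A. In prenatal T ewes it gave −0.16 (adjusted p 0.471), −0.70 (adjusted p 0.00442) and 0.087 (adjusted p 0.626). The fit of prenatal T ewes has 1 liver in set 1 (ewe 48) and 1 muscle in set 2 (ewe 255).

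**Figure D3:**
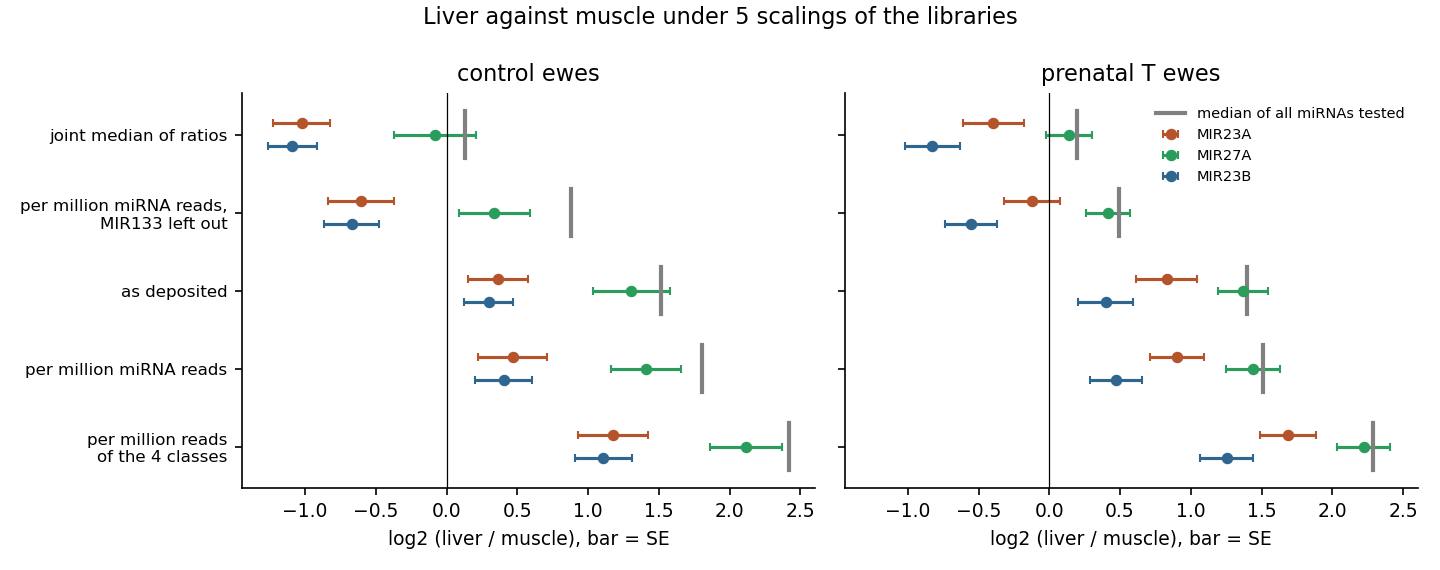
Liver minus muscle (x axis, log2, points with SE bars) of MIR23A, MIR27A and MIR23B under 5 scalings of the libraries (y axis), in control ewes (left) and prenatal T ewes (right), with the median of all miRNAs tested as a grey line. All values shift with the scaling, the median of controls from 0.13 to 2.42. With all libraries, MIR23A, MIR23B and MIR27A stay below the median under all 5. A scaling shifts all miRNAs nearly alike, so the 5 are not separate tests of this. Without the liver of ewe 98 (not shown), MIR27A in controls was 0.12 above the median on the joint scale.

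A ratio of 2 members in a library needs no scaling between tissues. In 7 of 8 livers MIR27A had the most reads, then MIR23B, then MIR23A; in that of ewe 98 MIR23B led and MIR27A was last. In muscle MIR23B led in 6 libraries, with MIR27A next in 5 of them and last in that of ewe 131. MIR27A led in the muscle of ewes 98 and 255. MIR23A had fewer reads than MIR23B in all 16 libraries.

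The log2 ratio of MIR23A to MIR23B was −0.71 ± 0.19 in control liver, −0.54 ± 0.18 in exposed liver, −0.77 ± 0.24 in control muscle and −0.97 ± 0.071 in exposed muscle (mean ± SD, n = 4 each). The exposed muscles ran from −1.07 to −0.91, a narrow band. Between exposed and control ewes the ratio differed by 0.17 in liver (p = 0.229) and by −0.19 in muscle (p = 0.171) in two-sided exact permutation tests, whose smallest possible p is 0.0286. Without the muscle of ewe 201, at −1.13 the lowest control, the difference in muscle was −0.31 (exact p = 0.0286, the smallest possible with 7 libraries). That was the lowest exact permutation p as each muscle library was left out, and the highest was 0.371. Liver exceeded muscle of the same ewe in 7 of 8 ewes, by 0.25 ± 0.28 (two-sided exact sign-flip permutation p = 0.0547, adjusted p 0.211 over 9 ratio tests). Without ewe 131, the only ewe with the lower ratio in liver, the excess was 0.33 (exact permutation p = 0.0156). The 7 ewes left all had the higher ratio in liver, so this p is the smallest possible for them. With each ewe left out in turn, the exact permutation p ran from 0.0156 to 0.109. Within each tissue the mean of the ratio was lower in library set 2, which was not tested. In liver it was −0.43 ± 0.19 in set 1 (n = 2) and −0.69 ± 0.16 in set 2 (n = 6), and in muscle −0.84 ± 0.19 in set 1 (n = 7) and −1.07 in the library of set 2. The ranges of the sets overlapped in liver and in muscle. In the 3 ewes whose libraries were both of a single set (98, 48 and 255) liver exceeded muscle in each, by 0.10, 0.61 and 0.34.

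The ratio of the neighbours MIR27A and MIR23A separated the library sets, which were largely confounded with tissue. Its log2 value in control liver was −0.25 for ewe 98 of set 1, and 1.56, 1.83 and 1.82 for ewes 131, 132 and 201 of set 2. In exposed liver it was 0.82 for ewe 48 of set 1, and 1.47, 1.43 and 1.01 for ewes 185, 233 and 255 of set 2. In control muscle, all of set 1, it was 0.70, −0.24, 0.16 and 0.58. In exposed muscle it was 0.31, 0.47 and 0.68 for ewes 48, 185 and 233 of set 1, and 1.15 for ewe 255 of set 2.

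All 7 libraries of set 2 (1.01 to 1.83, mean 1.47 ± 0.31) lay above all 9 of set 1 (−0.25 to 0.82, mean 0.36 ± 0.40), in both tissues. How many other pairs of miRNAs separate the sets in this way was not counted. Within set 1 the livers of ewes 98 and 48 spanned the muscle values (−0.24 to 0.70). Within set 2 the muscle of ewe 255 lay inside the range of the 6 livers. Liver exceeded muscle in 6 of 8 ewes, by 0.74 ± 0.93 (exact permutation p = 0.0703, adjusted p 0.211), and by 0.98 without ewe 98 (exact permutation p = 0.0313). With each ewe left out in turn, the exact permutation p ran from 0.0313 to 0.141. In ewes 98, 48 and 255, whose libraries were both of a single set, the differences were −0.95, 0.52 and −0.14, with a mean of −0.19, and of 0.19 without ewe 98. Tissue and library set cannot be told apart in the pooled value. The prenatal T ewes differed from controls by −0.054 in liver (exact permutation p = 0.943) and by 0.35 in muscle (exact permutation p = 0.286), and the latter was 0.18 without ewe 255.

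For MIR27A against MIR23B the means were 0.53 ± 0.93 in control liver, 0.65 ± 0.31 in exposed liver, −0.48 ± 0.37 in control muscle and −0.32 ± 0.30 in exposed muscle. Liver exceeded muscle in 7 of 8 ewes, by 0.99 ± 0.89 (exact permutation p = 0.0234, adjusted p 0.211), and by 0.16 in the 3 ewes with both libraries in a single set (−0.85 in ewe 98, 1.13 in ewe 48 and 0.20 in ewe 255), or 0.66 without ewe 98. Exposed and control ewes differed by 0.12 in liver (exact permutation p = 0.914) and by 0.16 in muscle (exact permutation p = 0.514). The library sets overlapped for this ratio, at −0.83 to 0.53 in set 1 and 0.087 to 1.28 in set 2.

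**Figure D4:**
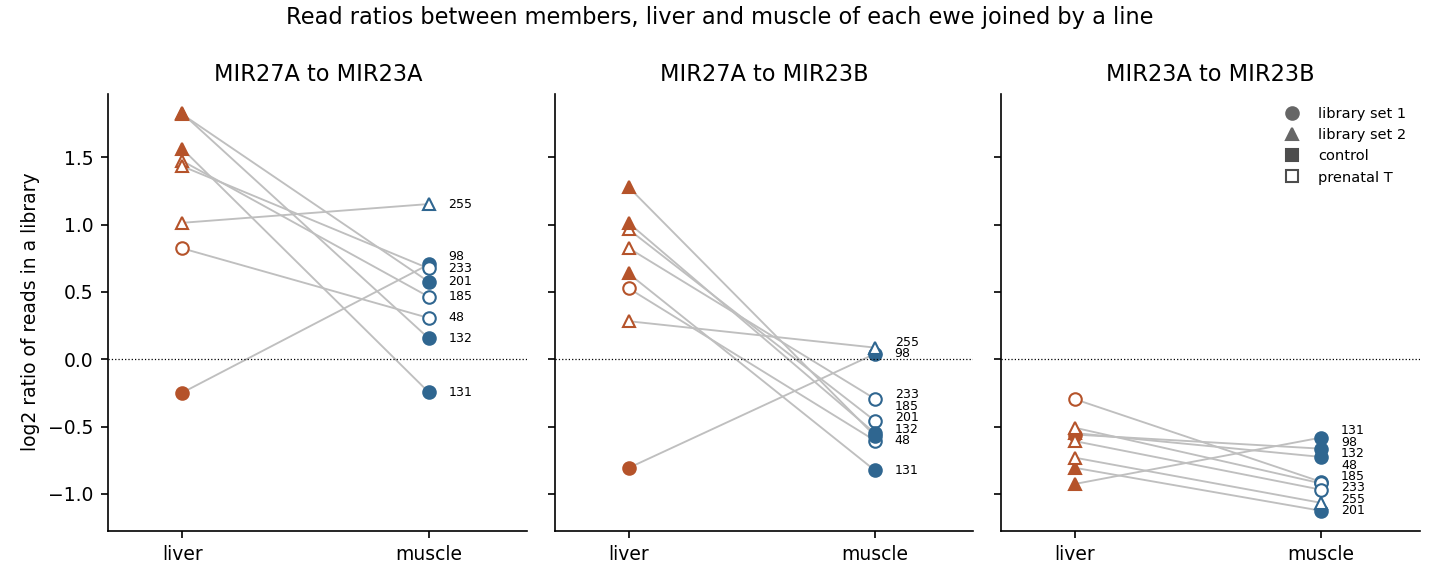
Log2 ratios of reads between members (y axis) in liver and muscle (x axis), with the libraries of each ewe joined by a line and ewe numbers at the right, circles for library set 1, triangles for set 2, filled for controls and open for prenatal T. For MIR27A to MIR23A all triangles (1.01 and higher) lie above all circles (0.82 and lower); for MIR23A to MIR23B the sets overlap within each tissue, and set 2 has the lower mean in liver (−0.69 against −0.43).

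The members were then compared between library sets, with the 4 groups as covariates, a comparison chosen after the ratios were seen. Within groups it rests on the livers of ewes 98 and 48 and the muscle of ewe 255, each set against the rest of its group. The muscle controls, all of set 1, add nothing to it but spread. MIR23A was lower in set 2, at −0.48 on the log2 scale (95% interval −0.79 to −0.17, adjusted p 0.0406, limma), MIR23B was at −0.26 (−0.57 to 0.041, adjusted p 0.262), and MIR27A was at 0.56 (0.16 to 0.97, adjusted p 0.0586). Of 76 miRNAs 9 passed (11.8%), 5 higher (6.58%) and 4 lower (5.26%) in set 2. The MIR23A call rested on single ewes: leaving out each ewe gave −0.55 to −0.43 with adjusted p from 0.0491 to 0.122, and of the 8 ewes only ewe 201 could be left out with the call kept. As a share of miRNA reads it was −0.40 (adjusted p 0.184). MIR27A was at 0.15 (adjusted p 0.508) without ewe 98 and passed without ewe 255, at 0.80 (adjusted p 0.0267). The count of miRNAs passing ran from 4 to 11 as each ewe was left out.

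Across ewes 1 of 6 relations between members passed after adjustment, that of MIR23A with MIR23B in muscle by Pearson's r. The correlation of their log2 jointly scaled reads there was r = 0.83 (exact permutation p = 0.00796, adjusted p 0.0478 over 6 relations) and rho = 0.71 (exact permutation p = 0.0576, adjusted p 0.138) over 8 ewes. It rests on ewes 131 and 255: without them r was 0.57 (exact permutation p = 0.281), and within the 7 libraries of set 1 it was 0.64 (exact permutation p = 0.113). In liver r was 0.63 (exact permutation p = 0.102) and rho 0.52 (exact permutation p = 0.197), and 0.56 in the 6 libraries of set 2, which are also those left when ewes 98 and 48 are dropped.

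For MIR27A in liver the values were r = −0.65 against MIR23A (exact permutation p = 0.0498, adjusted p 0.0996) and r = −0.70 against MIR23B (exact permutation p = 0.0290, adjusted p 0.0869), and rho = −0.67 for both (exact permutation p = 0.0831). Neither passed after adjustment, and within set 2 they were −0.26 and −0.53 (exact permutation p = 0.642 and 0.281). Without ewes 98 and 132 they were −0.53 and −0.38. In muscle r was −0.46 against MIR23A and −0.52 against MIR23B (exact permutation p = 0.239 and 0.205).

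The profile of each member over all 16 libraries was set beside those of 75 other miRNAs, by the root mean square difference of their centred log2 values. The nearest to MIR23A was MIR23B, at 0.22, then MIRLET7G at 0.30 and MIRLET7I at 0.32, where the median over all was 0.79. MIR23B was nearest to MIRLET7G at 0.21, then MIR23A at 0.22 and MIR30B at 0.28. MIR27A was nearest to MIRLET7F at 0.22, then MIR191 at 0.24 and MIR26A at 0.28. Its annotated neighbour MIR23A stood only 27th in its list, at 0.65, and MIR23B 30th, at 0.69. The paralogous miR-23 genes were thus closer in profile to each other than MIR23A was to its neighbour MIR27A; the libraries share tissue and depth, so this is a description without a test. MIR23A and MIR23B share nearly the same mature letters, and what shared reads add to their likeness was not tested.

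Markers of other cells are given by the range of their summed level in each group. MIR10A, MIR10B and MIR221 (3 of 5 listed endothelial markers) summed to 592 to 808 jointly scaled reads in control liver and 538 to 1075 in exposed liver. They summed to 2949 to 3659.6 in control muscle and 2015 to 2575 in exposed muscle, where 0% of miRNAs passed the test between groups. Most of the sum in each muscle library was MIR10B, and the markers differed. Liver minus muscle on the joint log2 scale was −5.30 for MIR10B, −0.83 for MIR10A and −0.21 for MIR221 in controls. In prenatal T ewes it was −4.56, −0.20 and 0.21 in the same order. MIR143, MIR199A and MIR21 (3 of 5 mesenchymal markers) summed to 16342 to 24611 in control muscle and 8051 (ewe 255) to 17473 in exposed muscle, and to 22241 to 35044 in liver. These markers differed too. Liver minus muscle on the joint log2 scale was −0.055 for MIR143, 0.51 for MIR199A and 1.92 for MIR21 in controls. In prenatal T ewes it was 0.55, 1.10 and 2.73 in the same order. MIR150, a lymphocyte miRNA (1 of 6 white blood cell markers), was at 1951 to 2634 in control muscle, 1242 to 2549.9 in exposed muscle and 220.1 to 423 in liver. MIR16B, of the 4 miRNAs listed for red blood cells the only 1 measured, was at 752 to 1677 in liver and 1341 to 2097 in muscle. Red blood cell content cannot be read from it alone. Their part in the member values was not tested, and in whole tissue fewer cells of a type and less RNA per cell cannot be told apart.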

How the data were processed

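Small RNA libraries of liver and muscle from 8 ewes were analysed in 4 groups of 4. Per the submitters' processing notes, featureCounts 1.6.1, STAR 2.6.0c and cutadapt 3.2 were used, in roles and on a genome build that those notes do not give here. The authors deposited a normalised signal: each library's reads over its own size factor. Dividing each miRNA value by what a single read is worth gave whole reads for 100% of 1432 values above 0 (within 0.001 reads). The worth of a read was accepted only if every value of the library came out whole, so the 100% is a condition of the search and not a separate check. Reads are not independent molecules, so depth covers counting error only; libraries of a group differed by a chi-square per degree of freedom of 24.2 to 292, so none was treated as a duplicate. All libraries were separate samples by their ewe numbers.

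Prenatal T and control were compared on deposited values within a tissue, and tissues after a joint median-of-ratios scaling of the reads of both. limma 3.58.1 in R 4.3.3 with a variance trend was fitted to log2(value + 1) over all miRNAs with a mean of at least 5, with Benjamini-Hochberg adjustment over those tested and a threshold of 0.05. The log2 scale with a pseudocount of 1 understates changes of low miRNAs, which the members are not. Ratios and relations were tested by exact permutation in Python 3.11.15 with scipy 1.17.1. The fits were tested on simulated data. The rule for names was all members, other miRNAs of their clusters, and the 3 nearest profiles of each member; MIR133 and the marker lists check the tissues. MIR24, of the same clusters, was not analysed here. The annotation table matched 105 of 105 miRNA symbols.

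The liver and muscle of a ewe come from the same animal, so the ewe pairs them; the deviations of its 2 libraries from their group means correlated between −0.28 and 0.35 over 76 miRNAs. The ewe was used as a replicate block in an alternative fit. The other alternatives were the scaling, the pseudocount, the filter, the variance trend, the library set and leaving out each library or ewe. The rule for the members used gene names alone. Earlier results of these data were known when that rule, the marker lists and the tests were chosen.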

Additional observations from a re-analysis of the deposited data

Results flagged for a closer look

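Of 24 checks for a library far from the others of its group, 2 gave a flag, and chance flags about 1 in 20. Both concern the liver of control ewe 98, the only control liver of library set 1. Its MIR23A value was 2341 normalised reads, where the other control livers had 1343 to 1496, and the gap was 0.846 of the range of the group. Its log2 ratio of MIR27A to MIR23A was −0.25, where the other control livers had 1.56 to 1.83, a gap of 0.873 of the range. In the same library MIR133 was at 816 normalised reads against 123 to 255 in the other livers. Among controls, library set and this ewe cannot be told apart in liver.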

How the results depend on the processing

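All log2 differences here are in the order MIR23A, MIR23B, MIR27A unless named. The scaling changed the most values. Liver minus muscle in controls (−1.02, −1.09 and −0.083 on the joint scale) was 0.36, 0.30 and 1.30 as deposited, 0.47, 0.40 and 1.41 as a share of miRNA reads, and 1.17, 1.11 and 2.12 as a share of the 4 RNA classes. In prenatal T ewes (−0.39, −0.83 and 0.14) it was 0.83, 0.40 and 1.37, then 0.90, 0.47 and 1.44, then 1.68, 1.25 and 2.22, and the last scaling called 75 miRNAs in place of 47. As a share of miRNA reads without MIR133, MIR27A was at 0.34 in controls and 0.42 in prenatal T ewes. With library set as a covariate MIR23A was at −0.56 and MIR27A at −1.10 in controls.

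For prenatal T minus control in liver, MIR23B turned from −0.051 to 0.0062 and 0.031 with the shares of miRNA reads and of the 4 classes, and in library set 2 alone MIR23B was at 0.083 and MIR27A at −0.20. In muscle MIR27A was at −0.037 with library set as a covariate and in set 1 alone. In the 3 ewes with both libraries in a single set, liver minus muscle was −0.19 for the log2 ratio of MIR27A to MIR23A and 0.16 for that of MIR27A to MIR23B, or 0.19 and 0.66 without ewe 98. The cause of these shifts was not tested.

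Leaving out each library or ewe in turn gave, for prenatal T minus control in liver, −0.15 to 0.084 for MIR23B and −0.24 to 0.23 for MIR27A, and in muscle −0.056 to 0.082 for MIR27A. The difference of effects ran from −0.012 to 0.35 for MIR23B and from −0.31 to 0.34 for MIR27A. Liver minus muscle ran from −0.34 to 0.35 for MIR27A in controls and from −0.69 to −0.25 for MIR23A in prenatal T ewes. The log2 ratio of MIR23A to MIR23B ran from −0.31 to −0.13 for prenatal T in muscle and from 0.20 to 0.33 between tissues. The ratio of MIR27A to MIR23A ran from −0.55 to 0.14 for prenatal T in liver and from 0.59 to 0.98 between tissues, and that of MIR27A to MIR23B from −0.33 to 0.37 for prenatal T in liver.

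With the replicate block (paired by ewe) 58 miRNAs passed between tissues in controls and 50 in prenatal T ewes, and the adjusted p was 0.00222, 0.000855 and 0.777 in controls and 0.102, 0.00469 and 0.432 in prenatal T ewes (limma), so no call of a member changed. Over all results that answer a comparison, 329 alternative values kept direction and side of the threshold, or a count within 1.5 times, and 41 reversed. A further 9 passed only in the alternative, 3 passed only in the main fit, and 1 count moved beyond 1.5 times. Some alternatives were the same fit, such as set 1 alone and leaving out ewe 255 in muscle. The 2 planned count-model tests were not run, since the miRNA table has too few low values to check that its recovered reads are counts. With 4 ewes per group, the median standard error of a prenatal T difference was 0.25 in liver and 0.22 in muscle.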
